A study of Homo sapiens with 12 samples.

Results

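The genes described here are 9 receptors for dopamine, serotonin and the catecholamines adrenaline and noradrenaline, out of 54261 genes in the total RNA count table. They are the dopamine receptors DRD1, DRD2 and DRD4, the serotonin receptors HTR7, HTR6, HTR1D and HTR2B, and the adrenergic receptors ADRB1 and ADRA2C. They were taken by name, with earlier results of these data known. DRD1 and HTR7 were chosen by their higher counts in the resistant line, so their values are given as a description with no test. All 9 were found in the table. Of these, 6 had enough counts to be tested (edgeR's filterByExpr with a minimum of 10 per library and 15 summed), and 3 did not. DRD4 and HTR2B had 0 counts in every library.

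Total RNA was sequenced from the established human colorectal cancer cells HCT116 and from HCT116oxR, derived from them under rising doses of the DNA-damaging platinum compound oxaliplatin. Oxaliplatin was started at 0.1 µmol/L and raised to 5 µmol/L, which was kept for 1 year. The parental cells carry the label of an untreated control. Each line gave 3 libraries from cultures grown and harvested separately, with 11950069 to 13558077 counts each. Only 1 resistant line was made, and the tests compare its cultures with those of its parent rather than independently selected lines. Of the 17511 genes tested, 44.1% differed between the lines, 22.3% higher and 21.8% lower in HCT116oxR, and 25.7% had every HCT116oxR library above every parental one. The colon epithelial markers EPCAM, KRT8, KRT18 and KRT19 were abundant in both lines, and CDH1 and CDX2 were present. Other markers of the list of 10 were low or absent, with KRT20 at 2.14 and 1.63 CPM, 2 counts per line for VIL1, 0 and 2 counts for CDX1, and CEACAM5 at 0 in all 6 libraries.

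These receptors sit in the plasma membrane and pass the signal of an amine to heterotrimeric G proteins. DRD1, HTR7, HTR6 and ADRB1 couple to Gs or its close relative Golf, which activate adenylyl cyclase and raise cyclic AMP (cAMP). DRD2, DRD4, HTR1D and ADRA2C couple to Gi and Go, which lower it, and HTR2B couples to Gq, which activates phospholipase C. In the intestine, serotonin comes mainly from enterochromaffin cells and noradrenaline from sympathetic nerves.

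The stretches upstream of 3 members are shown because DRD1 and HTR7 were both higher in HCT116oxR while DRD4 had no count in either line. They are the 250 bases before the annotated gene start in RefSeq (GRCh38.p14), 5′ to 3′ on the gene's strand, at chr5:175444183-175444432 (minus strand), chr10:90858040-90858289 (minus strand) and chr11:637019-637268 (plus strand). Capitals mark the GC box GGGCGG on either strand.
DRD1: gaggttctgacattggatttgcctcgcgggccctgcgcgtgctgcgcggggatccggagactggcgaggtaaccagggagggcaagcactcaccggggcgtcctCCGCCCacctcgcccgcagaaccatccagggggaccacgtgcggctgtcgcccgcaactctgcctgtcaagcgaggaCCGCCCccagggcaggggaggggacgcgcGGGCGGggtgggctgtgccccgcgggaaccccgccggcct
HTR7: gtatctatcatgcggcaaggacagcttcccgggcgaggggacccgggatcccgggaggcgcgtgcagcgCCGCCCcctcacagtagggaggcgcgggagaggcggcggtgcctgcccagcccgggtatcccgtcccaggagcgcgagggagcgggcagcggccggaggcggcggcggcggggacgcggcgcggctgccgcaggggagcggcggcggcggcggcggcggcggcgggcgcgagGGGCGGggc
DRD4: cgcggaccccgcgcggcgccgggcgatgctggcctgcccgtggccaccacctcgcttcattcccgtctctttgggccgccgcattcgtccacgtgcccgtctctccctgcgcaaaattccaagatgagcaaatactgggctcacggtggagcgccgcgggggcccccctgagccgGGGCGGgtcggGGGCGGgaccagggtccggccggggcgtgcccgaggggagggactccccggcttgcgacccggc

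All 3 windows were rich in G and C. The GC content was 73.2% for DRD1, 81.2% for HTR7 and 74.4% for DRD4, against a median of 58.0% over 35116 gene starts. CpG dinucleotides numbered 27, 41 and 32, against a median of 11. The number for DRD4 lay between those of DRD1 and HTR7, and any part of CpG content in the RNA levels was not tested. The GC box occurred 3 times for DRD1, 2 times for HTR7 and 2 times for DRD4, and 42.6% of all windows held it. The cAMP response element TGACGTCA was in none of the 7 members' windows that the RefSeq table held, and 1.65% of all windows held it. Its shorter core TGACG was found on either strand for ADRB1 alone among the 7, against 21.2% of all windows. Neither the TATA motif TATAAA (10.7% of all windows) nor TTCAGCACC (0.288%), the first part of the site bound by the repressor REST, was present in any of the 7. The E-box CACGTG, a palindrome, did not overlap a GC box in any of the 7 and was found once each for DRD1, DRD4 and HTR6, against 6.34% of all windows. DRD2 and HTR2B were not in the table. Each match is a run of letters, not a shown binding site.

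Among the Gs-coupled receptors, DRD1 went from no count to a clear signal. DRD1, the dopamine D1 receptor (chromosome 5, 175440036 to 175444182), was at 0 counts in all 3 parental libraries, against 126, 88 and 82 for HCT116oxR replicates 1, 2 and 3. The levels in HCT116oxR were 9.29, 6.57 and 6.68 CPM, which are counts scaled to library size with edgeR's TMM factors. The groups did not overlap, and HCT116oxR replicate 1 was the highest. The mean was 7.51 ± 1.54 CPM (SD, n = 3). A count of 0 allows up to 3 counts in a library, or 0.226 to 0.252 CPM in the parental libraries, so DRD1 was at least 31.2-fold higher in HCT116oxR. In a bulk sample, more cells that express the gene and more RNA per cell cannot be told apart. No annotated gene overlaps DRD1.

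HTR7, the serotonin 5-HT7 receptor (chromosome 10, 90740823 to 90858039), was present in both lines. It had 199, 188 and 201 counts in the parental libraries and 651, 639 and 632 in the HCT116oxR libraries. The groups were far apart and each was tight, with a coefficient of variation of 4.04% in parental cells and 4.30% in HCT116oxR. The mean went from 15.7 ± 0.634 to 49.1 ± 2.11 CPM (SD, n = 3 per line), a log2 fold change of 1.64 ± 0.09 (SE) or 3.12-fold. HTR7P1 on chromosome 12, a transcribed pseudogene copy of HTR7 and no member of the set, had 65, 67 and 63 parental and 79, 86 and 79 HCT116oxR counts. Its difference did not pass the test (log2 fold change 0.26 ± 0.20, edgeR quasi-likelihood test, Benjamini-Hochberg adjusted p = 0.315). How reads that match both copies were counted is not given in the sources used here.

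HTR6, the serotonin 5-HT6 receptor (chromosome 1, 19664875 to 19680966), was about 2-fold higher at a low level. It had 19, 24 and 15 parental and 42, 40 and 38 HCT116oxR counts, and the groups did not overlap. The mean rose from 1.56 ± 0.416 to 3.06 ± 0.0649 CPM (SD, n = 3 per line; log2 fold change 0.98 ± 0.33, SE, edgeR adjusted p = 0.0104). The call was lost when parental replicate 3 was left out (0.83, adjusted p = 0.0517).

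ADRB1, the beta-1 adrenergic receptor (chromosome 10, 114043866 to 114046904), had 16, 6 and 21 parental and 30, 34 and 25 HCT116oxR counts. Parental replicate 2 was the lowest, and the groups did not overlap. The mean was 1.14 ± 0.601 CPM in parental and 2.26 ± 0.254 CPM in HCT116oxR cells (SD, n = 3 per line; log2 fold change 0.98 ± 0.39, SE, edgeR adjusted p = 0.0338). This call was weak. It was lost with DESeq2 (adjusted p = 0.0681), with no count filter (0.0509), and without parental replicate 1 (0.0551), parental replicate 2 (0.221), HCT116oxR replicate 1 (0.0649) or HCT116oxR replicate 2 (0.108). ADRB1 entered the test only through the HCT116oxR libraries, since parental replicate 2 was under the count minimum.

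Of the Gi-coupled members, HTR1D and ADRA2C had a signal in both lines. HTR1D, the serotonin 5-HT1D receptor (chromosome 1, 23191895 to 23217502), had 107, 107 and 95 parental and 175, 163 and 157 HCT116oxR counts, with no overlap. Its mean rose from 8.25 ± 0.673 to 12.6 ± 0.401 CPM (SD, n = 3 per line; log2 fold change 0.61 ± 0.15, SE, edgeR adjusted p = 0.00034). ADRA2C, the alpha-2C adrenergic receptor (chromosome 4, 3766385 to 3768526), had 159, 117 and 163 parental and 235, 223 and 207 HCT116oxR counts, again with no overlap. Its mean rose from 11.7 ± 1.70 to 16.9 ± 0.354 CPM (SD, n = 3 per line; log2 fold change 0.54 ± 0.13, SE, edgeR adjusted p = 0.000353). Both calls held in every alternative fit and without each library in turn.

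**Figure D1:**
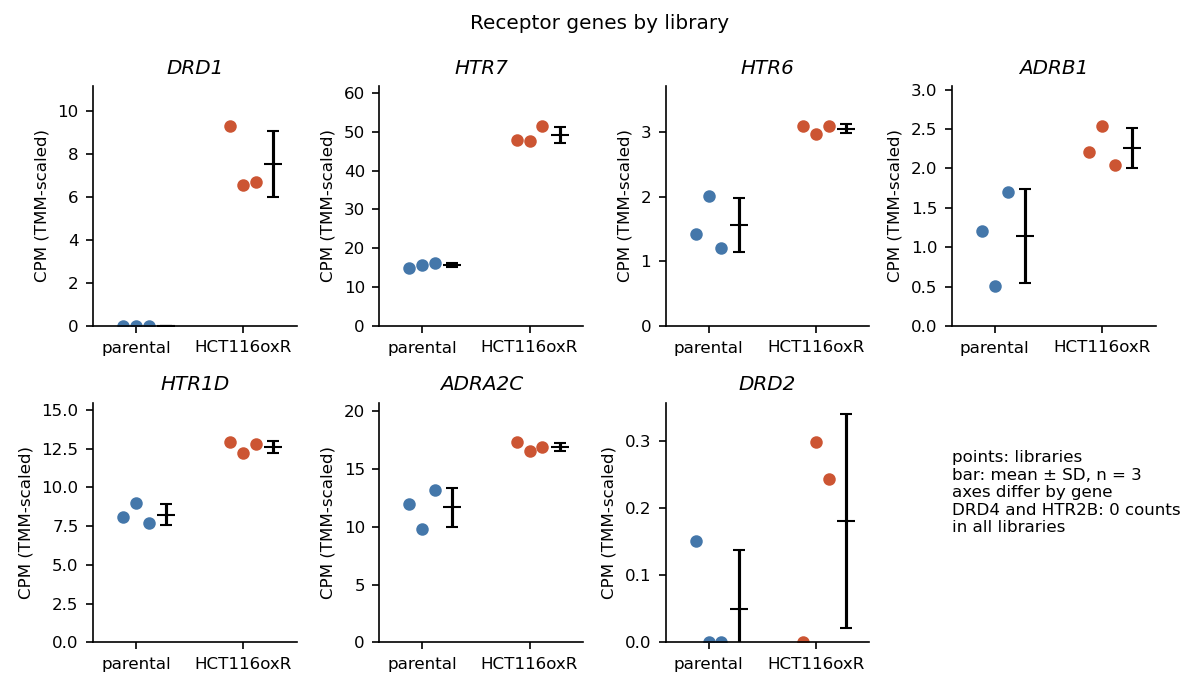
Level of each detected receptor gene by library (y axis, TMM-scaled CPM from 0, a different range for each gene), with parental libraries in blue, HCT116oxR libraries in orange and bars for the mean ± SD of 3 libraries. In 6 of the 7 panels every HCT116oxR library lies above every parental one, as for 25.7% of all tested genes, and DRD2 overlaps. DRD1 and HTR7 were picked for their rise, and ADRB1 passed the filter only through HCT116oxR.

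DRD2, the dopamine D2 receptor (chromosome 11, 113409605 to 113475398), was near 0. It had 2, 0 and 0 parental and 0, 4 and 3 HCT116oxR counts, and the groups overlapped. The ratio of CPM was 3.34 with an exact 95% binomial counting interval of 0.637 to 33.0, so no difference was detectable at this depth. DRD4, the dopamine D4 receptor (chromosome 11, 637269 to 640706), and HTR2B, the serotonin 5-HT2B receptor (chromosome 2, 231108230 to 231125042), had 0 counts in all 6 libraries. HTR2B lies inside PSMD1, a proteasome subunit gene that had 2778 to 3390 counts per library. Whether a read that falls on both genes was counted is not stated, so the 0 of HTR2B is not a statement about its RNA. Of the 7 members not picked for their rise, 4 were tested and called higher and none lower, and the other 3 lacked the counts for a test. One of the 4, ADRB1, had passed the filter only through the line where it was higher. The genome-wide share called higher is the 22.3% given above, and no weight is put on the members' count.

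Most of the other genes of the 3 receptor families had no count in the table. The families hold 31 genes in all, 22 of them beyond the members, and 15 of the 31 had 0 counts in every library. Among these were HTR2A, HTR4, HTR1A, DRD5, ADRB3 and 4 of the 5 HTR3 genes, which encode serotonin-gated ion channels. As for HTR2B, a 0 says nothing firm about the RNA where other genes overlap, such as SLC2A9 at DRD5 and HTR2A-AS1 at HTR2A. A further 6 of the 31 had counts in HCT116oxR alone, among them DRD1, which was picked for its rise, and HTR3A and ADRA1D, with 2 counts in 1 library each. Summed over the 29 genes other than DRD1 and HTR7, the level was 23.0 to 25.7 CPM in the parental and 39.4 to 41.0 CPM in the HCT116oxR libraries. The sums differ between the lines by more than they do within either, and 25.7% of all tested genes singly lay higher in this way. ADRA2C (means of 11.7 and 16.9 CPM) and HTR1D (8.25 and 12.6 CPM), described above, held most of these sums.

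HTR1B, the 5-HT1B receptor, had 6, 7 and 11 parental and 19, 19 and 17 HCT116oxR counts (log2 fold change 1.12 ± 0.49, SE, edgeR adjusted p = 0.0536). HTR1B narrowly missed the threshold, and it passed with a filter of 1 CPM in 3 libraries (adjusted p = 0.045) and without parental replicate 3 (1.42, adjusted p = 0.0445). ADRA2B, the alpha-2B receptor, had 11, 5 and 9 counts in parental cells against 14, 17 and 15 in HCT116oxR (0.81 ± 0.50, adjusted p = 0.194). These 2 were the only genes outside the members with enough counts, and neither was called (0 of 2 with edgeR, 0 with DESeq2, 1 at an unadjusted p under 0.05). Both entered the test only through the HCT116oxR libraries.

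Among the alpha-1 receptors, which couple to Gq, ADRA1A was at 0 in all 3 parental libraries and had 11, 6 and 11 counts in HCT116oxR, at least 2.99-fold higher. It was under the count filter of the main test. It was called with no filter and in the 4 fits that left out parental replicate 1, 2 or 3 or HCT116oxR replicate 2, which it could enter only through HCT116oxR, so these calls are no support. ADRA1B had 0 parental counts and 4, 7 and 1 in HCT116oxR (at least 1.25-fold), and DRD3, the D3 receptor, had 0 and 1, 3 and 8 (at least 1.32-fold). These 3 genes rest on 28, 12 and 12 counts. ADRA2A had 7, 1 and 0 parental and 4, 10 and 11 HCT116oxR counts (ratio of CPM 2.99, counting interval 1.31 to 7.66), and its groups overlapped. Pseudogenes, among them RPLP1P9 and GAPDHP40, overlap ADRA1A and ADRA1B in the annotation, so their low counts are uncertain.

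**Figure D2:**
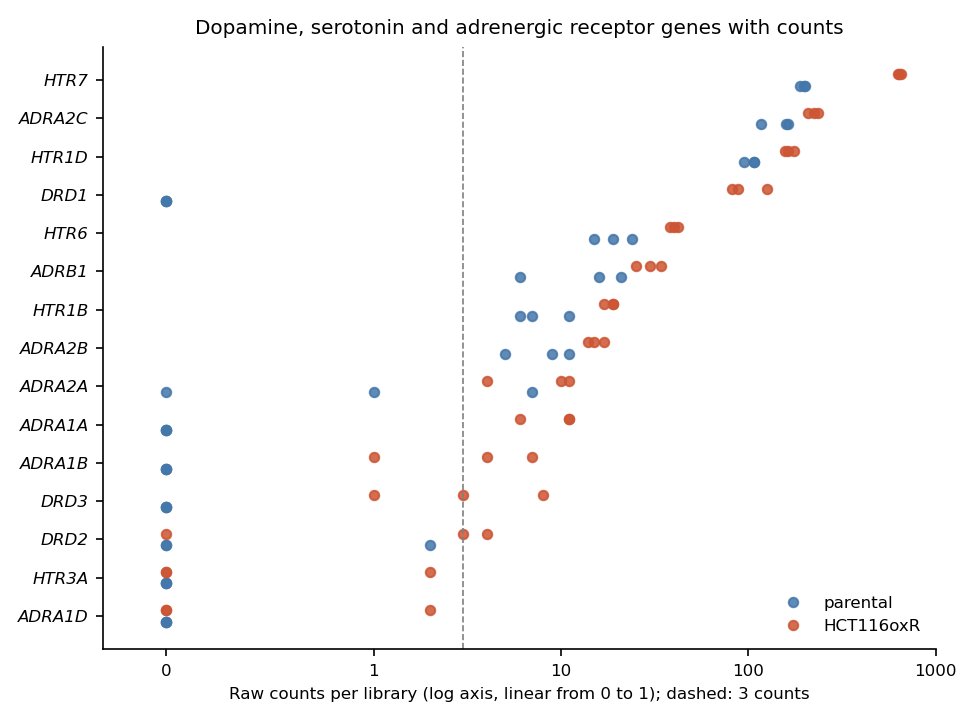
Raw counts in each library (x axis, log scale above 1) for 15 dopamine, serotonin and adrenergic receptor genes with counts, with 3 parental (blue) and 3 HCT116oxR (orange) points per gene and a dashed line at 3 counts. DRD1, ADRA1A, ADRA1B and DRD3 have all parental points at 0, and HTR7 has the most counts in both lines.

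The genes that make, carry and break down the ligands were mostly expressed at low level or not at all. TH, the rate-limiting enzyme of catecholamine synthesis, had 3, 14 and 3 parental and 0, 0 and 1 HCT116oxR counts, a ratio of CPM of 0.0478 (counting interval 0.00115 to 0.299). DBH and the noradrenaline transporter gene SLC6A2 had 0 counts throughout. Of 25 genes 11 were tested, with 5 higher, 1 lower and a median log2 fold change of 0.10, against 22.3% higher, 21.8% lower and a median of -0.001 over all genes. PCBD1 (0.44 ± 0.05, SE, edgeR adjusted p = 3.45e-12) and SPR (0.43 ± 0.09), which serve the tetrahydrobiopterin cofactor of amine synthesis, rose, as did SLC29A4 (0.35 ± 0.09), a low-affinity monoamine transporter. MAOA, which oxidises serotonin and noradrenaline, fell from 21.9 to 16.9 CPM (-0.38 ± 0.12, adjusted p = 0.00451). MAOA was not called without HCT116oxR replicate 1 (-0.27, adjusted p = 0.0823). Its sister enzyme gene MAOB went the other way, from 41.6 to 47.7 CPM (0.20 ± 0.08, adjusted p = 0.0245). TPH1, the serotonin-making enzyme of the gut, stood at -0.92 ± 0.44 (adjusted p = 0.0799) and entered the test only through the parental libraries. Of 15 histamine, muscarinic and trace amine receptor genes, CHRM4 alone was tested and missed the threshold (0.88 ± 0.38, adjusted p = 0.0507, 0 calls with edgeR and DESeq2, 1 at an unadjusted p under 0.05). It passed with library totals alone, with at least 1 CPM in 3 libraries, and without parental replicate 2 or HCT116oxR replicate 1. CHRM4 entered the test only through HCT116oxR, and it overlaps MDK in the annotation.

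The G protein subunits went both ways, with 7 of 19 tested genes higher, 6 lower and a median log2 fold change of 0.04, against 22.3% higher and 21.8% lower over all genes. GNAL encodes the alpha subunit of Golf, the partner of the D1 receptor in the striatum. It was at 0 in all 3 parental libraries and had 21, 11 and 12 counts in HCT116oxR, at least 4.64-fold higher. GNAL is one of the 7 but entered the test only through HCT116oxR, so its call is no support, and other genes, among them CHMP1B and MPPE1, overlap it. GNAZ, a Gi-family alpha subunit that lies over RSPH14, rose from 26.3 ± 2.80 to 61.0 ± 2.04 CPM (SD, n = 3 per line; log2 fold change 1.22 ± 0.08, SE). GNB1 rose by 0.18 ± 0.03, and GNA11, a Gq-family alpha subunit, fell by 0.49 ± 0.05. GNAI2, a Gi alpha subunit gene and one of the 6 lower calls, stood at only 3.43 and 1.83 CPM (-0.90 ± 0.30). GNAI1 was at 192 and 206 CPM. How reads were assigned to genes is not given in the sources used here, so the GNAI2 call is uncertain.

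Enzymes that make and break down cAMP followed no common direction. Adenylyl cyclases had 2 of 5 tested genes higher and none lower, with a median of 0.21, against 22.3% higher and 21.8% lower over all genes. ADCY6 stood at 0.30 ± 0.09 and ADCY9 at 0.21 ± 0.08 (edgeR adjusted p = 0.0048 and 0.0243). The ADCY6 call was lost without HCT116oxR replicate 3 (0.23), and the ADCY9 call without parental replicates 1 or 2 (0.18 each) or HCT116oxR replicates 2 (0.20) or 3 (0.21), so that 0 to 2 calls remained in this list. Among the cAMP phosphodiesterases 3 of 10 rose and 2 fell, with a median of 0.21, beside the same shares of 22.3% and 21.8%. PDE10A, a phosphodiesterase known from striatal neurons, had 34, 40 and 31 parental and 5, 0 and 4 HCT116oxR counts. It fell by 3.56 ± 0.52 (log2), with non-coding genes such as LINC00473 overlapping it. PDE10A is one of the 2 lower calls but entered the test only through the parental libraries, so its call is no support. PDE4D rose by 0.64 ± 0.16 and PDE4A by 0.21 ± 0.07, and PDE11A fell by 0.70 ± 0.23. The calls of PDE4A (without parental replicate 2, 0.19, or HCT116oxR replicate 2, 0.14) and PDE11A (without HCT116oxR replicate 1, -0.60, or 3, -0.55) rested on single libraries. Without parental replicate 2 this list had 4 lower calls.

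Downstream of cAMP, protein kinase A, EPAC and CREB genes had 3 of 17 higher and 5 lower, with a median of -0.08, which is near the shares of 22.3% and 21.8% over all genes. PKIB, an inhibitor of protein kinase A, had 76, 63 and 68 parental and 251, 178 and 180 HCT116oxR counts. It rose from 5.51 ± 0.218 to 15.5 ± 2.71 CPM (SD, n = 3 per line; log2 fold change 1.49 ± 0.16, SE, edgeR adjusted p = 6.45e-15). PRKACA, the kinase's catalytic subunit, fell from 79.6 to 54.9 CPM (-0.54 ± 0.06). ATF1 (0.20 ± 0.08) and PRKAR2A (-0.11 ± 0.04) moved little, and both calls were lost without parental replicate 3 (0.17 and -0.08) or HCT116oxR replicate 1 (0.17 and -0.09), and that of ATF1 also without parental replicate 1 (0.19). The lower calls in this list numbered 1 to 4 when one library at a time was left out and 1 with DESeq2, and the higher calls 1 to 3.

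Of 12 tested genes known to be induced through cAMP, 6 rose and 2 fell, with a median of 0.10, against 22.3% higher and 21.8% lower over all genes. The higher calls numbered 4 with DESeq2 and with no filter, 5 with the replicate number as a block, and 4 to 5 without single libraries. The transcription factor gene FOS rose from 28.5 ± 2.68 to 76.7 ± 6.19 CPM and BDNF, the neurotrophin gene, from 33.1 ± 0.917 to 73.1 ± 0.546 CPM (SD, n = 3 per line; log2 fold changes 1.43 ± 0.08 and 1.14 ± 0.07, SE). EGR1 rose by 0.42 ± 0.05, while NR4A2 fell by 0.51 ± 0.08. BDNF overlaps its antisense gene BDNF-AS. NR4A1 (-0.16 ± 0.14, edgeR adjusted p = 0.359) and DUSP1 (-0.06 ± 0.10, adjusted p = 0.626), chosen after their values were seen, were not called. The lower calls numbered 1 with DESeq2, with no filter, with library totals alone, and without any of 4 single libraries (parental replicates 2 and 3, HCT116oxR replicates 2 and 3). Other pathways also induce these genes.

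In the Gq branch, 1 of 7 tested genes of phospholipase C beta and the IP3 receptors rose and 3 fell. Over all genes 22.3% were higher and 21.8% lower. PLCB4 (-0.60 ± 0.09), ITPR3 (-0.50 ± 0.13) and PLCB3 (-0.17 ± 0.04) were lower, and PLCB2 rose from 1.26 to 2.74 CPM (1.10 ± 0.36, edgeR adjusted p = 0.00922). The ITPR3 call was lost without parental replicate 3 (-0.31), and the PLCB2 call without parental replicate 3 (0.90) or HCT116oxR replicates 2 (0.97) or 3 (0.98).

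The receptor kinases and arrestins, which switch activated receptors off, had 1 of 7 genes higher and 3 lower, against 22.3% and 21.8% over all genes. GRK2 rose by 0.29 ± 0.05, and ARRB1 (-0.30 ± 0.06), ARRB2 (-0.19 ± 0.06) and GRK6 (-0.17 ± 0.05) were lower. The calls of GRK6 (-0.14) and ARRB2 (-0.15) were lost without HCT116oxR replicate 1, which left 1 lower gene, and that of ARRB2 also without parental replicate 3 (-0.15). RGS genes, which shorten G protein signals, had 4 of 11 higher (22.3% over all genes) and none lower, and only RGS3 (0.40 ± 0.05, edgeR adjusted p = 1.03e-12) of the 4 held in every fit. RGS9 (0.93 ± 0.40, adjusted p = 0.0474), RGS2 (0.42 ± 0.18, 0.0459) and RGS10 (0.29 ± 0.11, 0.0249) were lost when single libraries were left out. RGS10 was lost without parental replicates 2 (0.29) or 3 (0.28) or HCT116oxR replicates 1 (0.25) or 2 (0.27). RGS9 was lost without parental replicates 2 (0.77) or 3 (0.79) or HCT116oxR replicates 1 (0.82) or 2 (0.87). RGS2 was lost without any library other than HCT116oxR replicate 1 (0.34 to 0.47). With the replicate number as a block, RGS9 (adjusted p = 0.0526) and RGS2 (0.0507) were lost too, which left 2.

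Over all 10 lists, 31 of 98 tested genes were called higher and 22 lower, against 22.3% higher and 21.8% lower over all genes. The share of lower calls is near that of all genes. The 53 calls became 43 with DESeq2, 47 with no count filter and 38 to 46 without single libraries. Among the 53 calls, GNAL and PDE10A entered the test only through the line where each was higher.

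**Figure D3:**
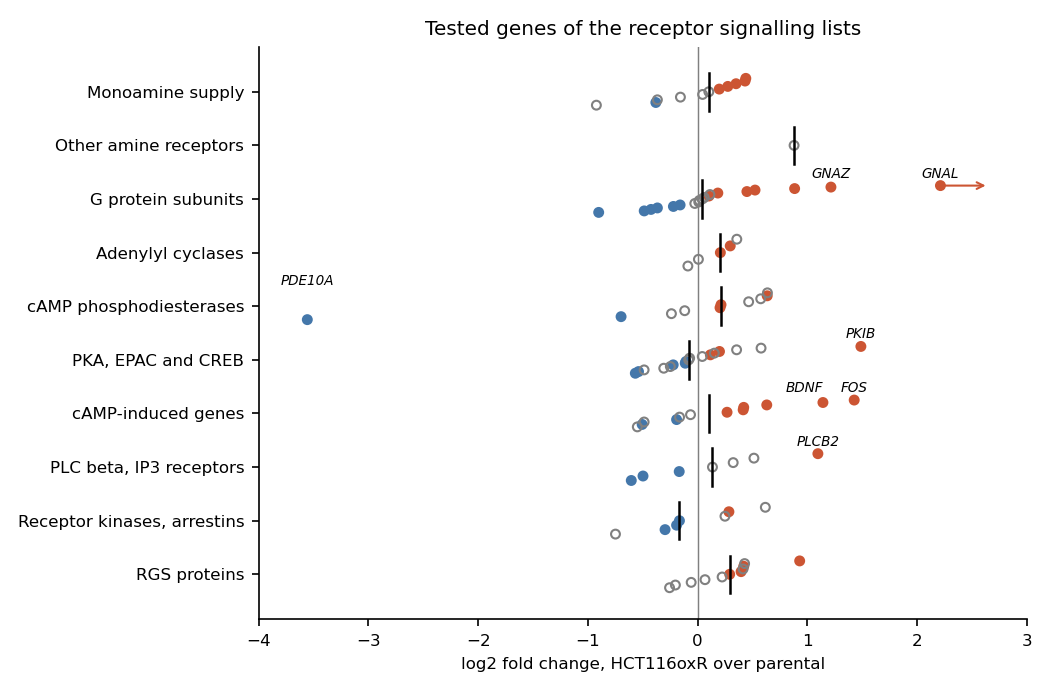
Log2 fold change of HCT116oxR over parental cells (x axis) for each tested gene of the 10 signalling lists (y axis), filled red-orange for a call as higher, filled blue for a call as lower and open for no call, with a black bar at each list's median. GNAL is drawn at its lower bound with an arrow, and PDE10A lies farthest to the left.

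Markers of cell types that carry these receptors were read beside the members. For each marker list, the shares over all genes to set beside it are 22.3% higher and 21.8% lower. Of 14 neuronal markers, 5 were tested and 2 were higher, with a summed level of 162 to 168 CPM in the parental and 202 to 208 CPM in the HCT116oxR libraries. TUBB3 held most of this level, at 139 and 146 CPM, and was not called (edgeR adjusted p = 0.189). NEFL, NEFM, GAP43 and ELAVL4 were at 0 in all libraries. SYT1, the calcium sensor of synaptic vesicles, rose from 6.85 ± 0.188 to 36.0 ± 2.01 CPM (SD, n = 3 per line; log2 fold change 2.39 ± 0.12, SE) and held most of that difference. Of 12 enteroendocrine markers 2 were tested and 1 was higher, with sums of 5.05 to 6.07 and 14.5 to 17.0 CPM. This was SCG2, secretogranin II (1.97 ± 0.17), which went from 3.72 to 14.6 CPM and made the rise of the sums. TPH1, the other tested marker, went the other way, from 1.66 to 0.872 CPM, and was not called. NEUROG3, INSM1, PAX4, GCG and SST were at 0. SYT1 and SCG2 were named after their values were seen. Of 8 fibroblast markers 2 were tested and 1 was lower (sums of 55.7 to 69.1 and 46.8 to 52.2 CPM), and of 6 leukocyte markers 1 was tested and was lower (10.2 to 13.2 and 5.30 to 6.71 CPM), with PTPRC and CD3E at 0. The part of these genes in the receptor values was not tested.

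The genes next to DRD1 and HTR7 on the chromosome were read in the same fit, as the 3 nearest tested protein-coding genes on each side. Of the 12 neighbours 8 were higher, none was lower and 4 were not called, against 22.3% higher and 21.8% lower over all genes. One of the 8, ANKRD1, entered the test only through the HCT116oxR libraries. SFXN1, a mitochondrial serine transporter gene 34.4 kb from DRD1, rose from 172 ± 7.57 to 294 ± 6.09 CPM (SD, n = 3 per line; log2 fold change 0.77 ± 0.04, SE, edgeR adjusted p = 6.31e-38). On the other side of DRD1, MSX2 (709.1 kb) rose by 0.57 ± 0.15 and CPEB4 by 0.27 ± 0.08, while BOD1 stood at 0.11 ± 0.08 (adjusted p = 0.238). Beyond SFXN1, THOC3 stood at -0.05 ± 0.07 (adjusted p = 0.607) and SIMC1 rose by 0.42 ± 0.10. These differences were far smaller than the bound for DRD1.

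Next to HTR7, RPP30 at 13.9 kb was not called (-0.04 ± 0.07, edgeR adjusted p = 0.688). ANKRD1, which encodes a cardiac ankyrin repeat protein and lies 54.1 kb from HTR7, had 0, 0 and 1 parental and 44, 41 and 37 HCT116oxR counts. Its ratio of CPM was 117 with a counting interval of 20.5 to 4640. PCGF5 beyond it was not called (0.06 ± 0.05, adjusted p = 0.340). On the other side, KIF20B (965.9 kb) rose by 0.28 ± 0.04, PANK1 by 0.44 ± 0.13 and IFIT5 by 0.46 ± 0.09. HTR7 and ANKRD1 were higher, and RPP30, which lies between them, was not called. Any part of the region in the values of DRD1 or HTR7 was not tested.

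**Figure D4:**
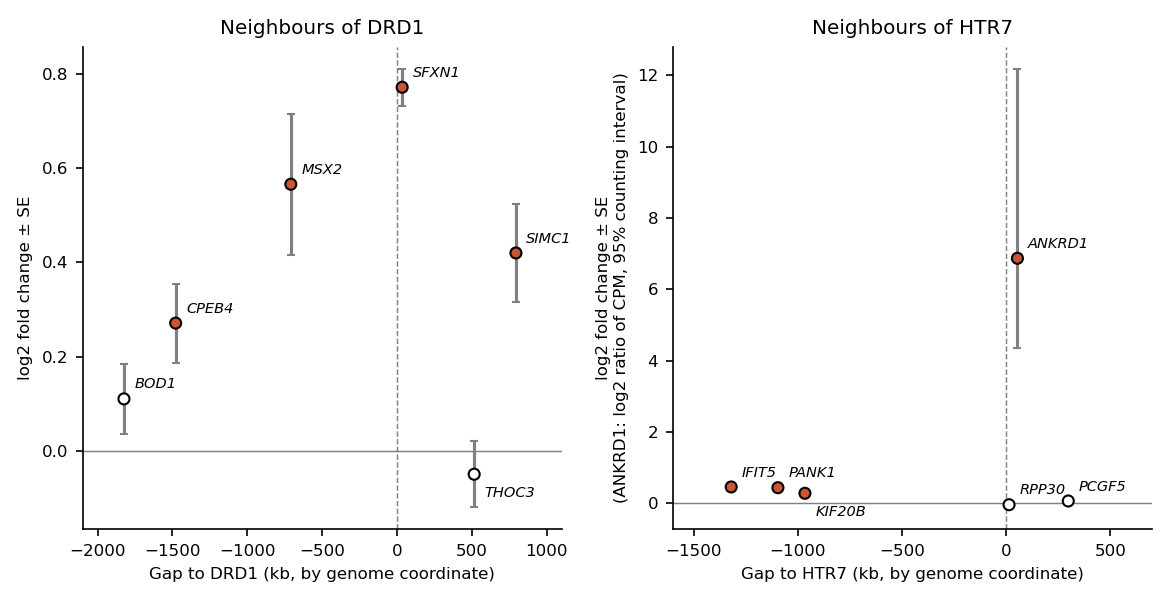
Log2 fold change (y axis, different range in each panel) of the 3 nearest tested protein-coding genes on each side of DRD1 and of HTR7 against the gap in kb (x axis), with bars for the SE, or for ANKRD1 the 95% counting interval, and filled points for genes called higher. SFXN1 stands closest to DRD1 and highest in its panel, and ANKRD1 stands far above the other neighbours of HTR7.

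Many genes shared the step between the lines. Over the 6 libraries, Pearson's r of log2(CPM + 1) with DRD1 was highest for DYNC1H1 (0.9995), DNAH6 (0.9994) and RPSA (0.9994), and with HTR7 for RMDN1 (0.9999), EHF (0.9998) and SYK (0.9998). An r above 0.99 was reached by 342 genes with DRD1 and by 375 with HTR7. With 3 libraries in each of 2 lines, such an r mostly measures the step between the lines.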

How the data were processed

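The authors' deposited table held raw counts per gene for total RNA, with 1 column per sample, and every column of values was used. HISAT2 and GRCh38 are named in the submitters' processing notes. Not given in the sources used here: the counting tool, annotation, strand setting and handling of multiply or jointly mapped reads. The small RNA table was not used.

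HCT116oxR was tested against parental cells by edgeR 4.0.16 under R 4.3.3 (quasi-likelihood F test, robust, 2-sided) over all 17511 genes that passed filterByExpr (minimum count 10, total 15), with TMM factors and Benjamini-Hochberg adjustment over all of them at 0.05. Levels are TMM-scaled CPM. SEs were approximated by dividing the size of each log2 fold change by √F. A line at 0 was set to 3 counts per library for a lower bound. A gene with few counts in a line got a ratio of pooled CPM with an exact 95% binomial interval. Bounds and intervals cover counting error only. The fit was tested on simulated data. DESeq2 1.42.0, other scalings and filters, and fits without each library were alternatives.

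The members and gene lists were chosen with earlier results of these data known. Named genes were the members, family genes with 10 or more counts (1 is not reported here), up to 4 called genes per list by lowest p, the neighbours, and the 3 genes most correlated with DRD1 and HTR7. Other genes named fall outside this rule and were picked with their values in view. Among them are TH, TPH1, DBH, SLC6A2, MAOB, CHRM4, GNAS, GNAI1, GNAI2, PRKAR1A, HTR7P1 and the markers. Gene positions and sequences came from RefSeq tables of GRCh38.p14. For 7 of the 9 members a promoter entry was found. Libraries of a line differed by more than sampling noise (chi-square per degree of freedom 2.24 to 3.12), so each was kept as 1 replicate.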

Additional observations from a re-analysis of the deposited data

How the results depend on the processing

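All fits kept the direction of HTR6, HTR1D, ADRB1 and ADRA2C. The members not picked for their rise gave 4 calls, 3 with DESeq2 and with no count filter, and 3 to 4 without single libraries. The count of calls among the other receptor family genes was 0, but 3 with no count filter (ADRA1A, ADRA1B, DRD3), 1 with at least 1 CPM in 3 libraries (HTR1B), and 0 to 2 without single libraries. Over all genes the calls numbered 7721, 6780 with DESeq2, and 6994 to 7275 without single libraries. The signs of 3 uncalled neighbours turned without single libraries: THOC3 ranged from -0.131 to 0.002 (without parental replicate 3), PCGF5 from -0.004 (without parental replicate 3) to 0.12, and RPP30 from -0.141 to 0.062 (without HCT116oxR replicate 2). The DRD1 bound ran from 27.6 to 33.2 and the HTR7 ratio from 3.05 to 3.18 without single libraries. Scaling by library totals shifted the median log2 fold change by 0.009.

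The main fit took the replicate numbers as names only, and same-numbered libraries showed no shared deviation (r = 0.001, -0.023 and -0.025). Such low r values do not show that these libraries shared no step of handling. With the replicate number as a block, 7565 genes were called, 49 of the signalling genes against 53, and the same 4 members. Depth limits DRD2, DRD3, ADRA1B and ADRA2A, for which a few counts decide the value.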

Other observations

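Some genes of the G protein pathway had counts lower than is usual for genes that most cells use. GNAS, which encodes the Gs alpha subunit that DRD1, HTR7, HTR6 and ADRB1 couple to, had 0, 0 and 0 parental and 0, 2 and 2 HCT116oxR counts. PRKAR1A, a regulatory subunit of protein kinase A, had 6, 7 and 13 against 15, 15 and 11. GNAS overlaps GNAS-AS1 in the annotation. The counting of such reads is not given in the sources used here, so these counts, like the 0 of other genes, are values of the table rather than statements about the RNA.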
